A study of Mus musculus with 15 samples.

Results

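Genes of glucose use and glucose production were followed through fibrotic kidney and lung of mice given a leptin-neutralizing antibody (LepAb) or control IgG. They were taken by symbol from a table of 56748 genes, and all 9 were found: the gluconeogenic enzymes Pck1 and Fbp1, the glucose transporters Slc2a2 (GLUT2) and Slc2a1 (GLUT1), the hexokinases Hk1 and Hk2, the phosphofructokinase Pfkp, the pyruvate kinase Pkm and the lactate dehydrogenase Ldha. The other 62 genes of the same pathways that the table holds served as their surroundings.

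RNA was sequenced from 15 libraries, 3 in each of 5 groups, and all mice were male wild-type C57Bl/6. WTK were kidneys of vehicle-treated mice, for which the labels name no antibody. IgGK and LepK were kidneys of mice that received 1 intraperitoneal dose of folic acid (200 mg/kg), which injures the tubules. IgG or LepAb (10 mg/kg) followed in IgGK and LepK, and tissue was taken on day 28 in all 3 kidney groups. The kidney mice were 10 to 12 weeks old. IgGL and LepL were lungs of mice aged 12 weeks that received bleomycin (1.5 units/kg) into the airways. These mice were then given IgG or LepAb (10 mg/kg) every other day up to day 14, when tissue was taken. No lung without bleomycin was analysed here, so the lung values compare antibodies only. Organ, injuring agent, course of antibody and day cannot be told apart between kidney and lung. The lung libraries of a group came from separate mice according to the study, which for the kidney gives the same number per group. The p-values measure the spread between these libraries.

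Glycolysis splits glucose to pyruvate. Hexokinase, phosphofructokinase and pyruvate kinase catalyse its irreversible steps, and lactate dehydrogenase A links pyruvate with lactate. Gluconeogenesis runs the reversible steps backwards and bypasses the irreversible ones with phosphoenolpyruvate carboxykinase (Pck1), fructose-1,6-bisphosphatase (Fbp1) and glucose-6-phosphatase. In the kidney the proximal tubule makes glucose and burns mainly other fuels, takes back filtered glucose at its luminal face through Slc5a2 (SGLT2) and releases it through Slc2a2, while distal segments, immune cells and fibroblasts rely more on glycolysis.

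The members lie on GRCm39 at chr2:172994841-173001066 (Pck1, plus strand), chr13:63012567-63036096 (Fbp1, minus), chr3:28752052-28785508 (Slc2a2, plus), chr4:118965908-118995180 (Slc2a1, plus), chr10:62104634-62215687 (Hk1, minus), chr6:82702006-82751435 (Hk2, minus), chr13:6629804-6698813 (Pfkp, minus), chr9:59563651-59586658 (Pkm, plus) and chr7:46490899-46505051 (Ldha, plus). All 9 are protein coding. Libraries were not directional, so Pfkp shares its reads with the overlapping opposite-strand gene Pitrm1 wherever both are transcribed. Pkm overlaps Gm49759 on its own strand, and a gene-level count does not separate the M1 and M2 splice forms of Pkm.

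Promoter windows of some members are shown because the members did not move as 1 set in the kidney. Pck1, Fbp1, Slc2a2 and Ldha were called lower and Hk2 and Pfkp higher after folic acid. The bases below are the last 100 before the RefSeq start site, in the direction of the gene, from RefSeq on GRCm38.p6. Capitals mark each match, on either strand, to ACGTG (the core of the hypoxia response element), TGACGT (the core of the cAMP response element), TATAAA (the classic box of core promoters) or GGGCGG (the box bound by Sp factors).
Pck1, chr2:173152973-173153072, plus strand: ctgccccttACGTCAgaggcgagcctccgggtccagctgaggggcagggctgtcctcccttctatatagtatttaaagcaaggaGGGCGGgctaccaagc
Fbp1, chr13:62888283-62888382, minus strand: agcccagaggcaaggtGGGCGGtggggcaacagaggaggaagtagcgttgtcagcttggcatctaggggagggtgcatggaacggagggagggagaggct
Slc2a2, chr3:28697803-28697902, plus strand: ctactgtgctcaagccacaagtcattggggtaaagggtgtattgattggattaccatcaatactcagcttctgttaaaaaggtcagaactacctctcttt
Slc2a1, chr4:119108645-119108744, plus strand: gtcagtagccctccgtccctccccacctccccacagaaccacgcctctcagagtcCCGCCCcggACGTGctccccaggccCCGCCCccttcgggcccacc
Hk2, chr6:82774455-82774554, minus strand: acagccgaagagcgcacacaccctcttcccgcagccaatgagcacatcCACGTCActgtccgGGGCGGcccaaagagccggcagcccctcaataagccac
Pkm, the downstream of 2 start sites, chr9:59657127-59657226, plus strand: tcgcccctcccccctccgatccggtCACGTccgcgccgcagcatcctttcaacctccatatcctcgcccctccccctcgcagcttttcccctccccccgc
Ldha, the upstream of 2 start sites, chr7:46845704-46845803, plus strand: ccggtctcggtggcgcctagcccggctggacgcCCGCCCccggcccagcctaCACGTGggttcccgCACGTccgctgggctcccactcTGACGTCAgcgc

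All 9 members matched the promoter table, through 12 windows. Not printed were the window of Pfkp, both of Hk1, the upstream of Pkm and the downstream of Ldha. In their 250 bases Pfkp held 4 matches to GGGCGG, this Pkm window 1, and the others no match. None of these unprinted windows held ACGTG or TGACGT. Within the 250 bases before the start, ACGTG was present for 4 members, Slc2a1, Hk2, Pkm and Ldha. Counted by window, as for all promoters, it lay in 4 of the 12 windows and in 16.6% of all 32851 promoters. The cAMP element core was present for Pck1, Hk2 and Ldha, in 3 of the 12 windows, and in 6.47% of all promoters. In Pck1 it began 91 bases before the start. In Hk2 both cores overlapped in the run CACGTCA, and in Ldha the palindromes CACGTG and TGACGTCA counted on both strands. GGGCGG was found for 7 members, all but Slc2a2 and Hk1, in 7 of the 12 windows, and in 32.7% of all promoters. TATAAA was found for none, against 12.4% of all promoters. The same members held each core when only the last 100 bases were searched. These matches describe letters in a window and no binding.

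Total counts ran from 25913969 to 38924788 per library. Values within an organ are CPM (counts relative to the library total) scaled by edgeR's TMM factors, and levels between genes are TPM, which also divide by gene length. The TMM factors moved with the kidney groups, at 0.844 to 0.858 in WTK, 1.14 to 1.18 in IgGK and 0.970 to 1.05 in LepK. Scaling by library size alone therefore moved the all-gene median, on the log2 scale, to 0.48 for IgGK against WTK, to -0.19 for LepK against IgGK and to 0.29 for LepK against WTK, and it is named where it ended or added a member's call. The organs carried their defining markers: Slc34a1, the phosphate transporter of the proximal tubule, averaged 9465 normalized CPM in WTK and 0 in IgGL, and Sftpc, the surfactant protein of alveolar type 2 cells, averaged 5335 in IgGL and 0 in WTK. In IgGK replicate 2 and LepK replicate 2 the 4 hepatocyte markers summed to 142 and 874 normalized CPM, against 50.6 to 57.0 in WTK and 62.1 to 111 in the other 4 folic acid kidneys. Pck1, Fbp1 and Slc2a2 are also liver genes, so their values are given also without these libraries.

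A gene was called when its absolute log2 fold change passed 0.5 and its adjusted p (edgeR quasi-likelihood test, Benjamini-Hochberg over all genes tested) was under 0.05. In IgGK against WTK, 2 of the 9 members were called higher and 4 lower, against 21.7% and 15.6% of all 19593 genes tested. Library-size scaling turned the 4253 genes called higher and 3057 lower into 7803 and 1178, and the members into 3 and 2. In LepK against IgGK, 1 member was called higher and none lower, against 4.38% and 5.99%. In LepK against WTK, 2 members were called higher and 2 lower, against 15.2% and 7.3%. In LepL against IgGL, 8 members passed the filter on low counts and 1 of them was called lower and none higher, against 1.78% of 19617 genes called higher and 2.36% lower. These 349 and 463 genes became 1937 and 1602 without IgGL replicate 1, 3 and 1 without IgGL replicate 3, 18 and 4 without LepL replicate 1, and 0 and 0 by edgeR when replicate 2 of IgGL, or replicate 2 or 3 of LepL, was left out, with 3689, 4069 and 3401 genes then at an unadjusted p under 0.05. DESeq2 on all 6 libraries called 1236 and 1102. The median log2 fold change of the members was -0.17 in IgGK against WTK, 0.26 in LepK against IgGK, 0.11 in LepK against WTK and -0.25 in LepL against IgGL, beside 0.04, -0.01, 0.03 and 0.00 over all genes. IgGK enters the first comparison and the second, and WTK the first and the third, so these do not count as separate evidence.

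**Figure D1:**
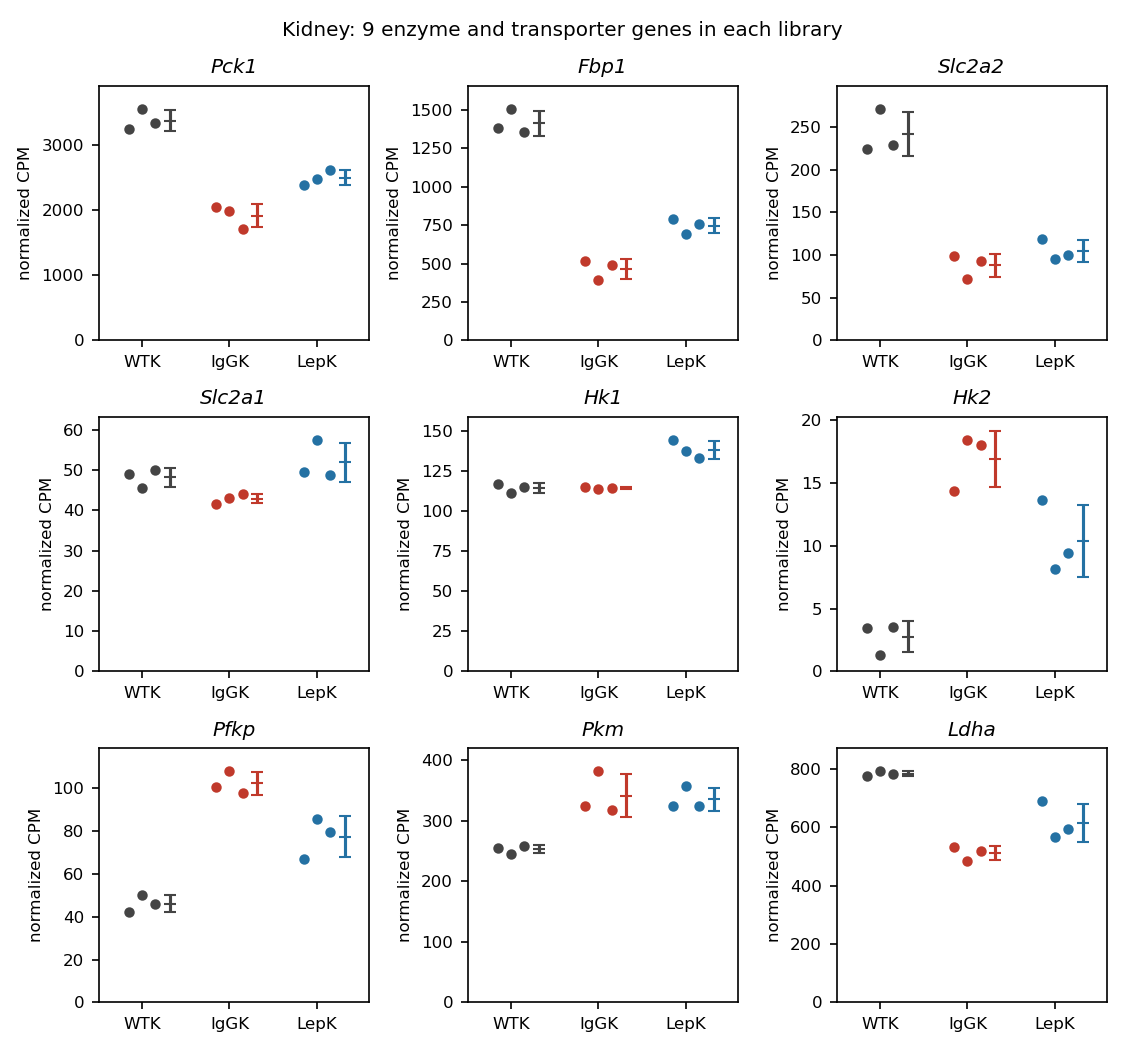
Normalized CPM (vertical axes, from 0) of the 9 members in WTK, IgGK and LepK; each point is 1 library and the bar beside it gives the mean and SD of 3. Pck1, Fbp1 and Slc2a2 were highest in WTK, Hk2 and Pfkp were lowest in WTK and highest in IgGK, and Hk1 was about 114 in both WTK and IgGK.

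Both gluconeogenic enzymes fell after folic acid, and with LepAb Fbp1 was the member that passed both the p and the fold threshold. Fbp1, which removes a phosphate from fructose-1,6-bisphosphate, measured 1384, 1506 and 1354 normalized CPM in WTK, 516, 391 and 489.5 in IgGK and 792, 692 and 759 in LepK. No library of one group reached the range of another. Fbp1 was 3.04-fold lower in IgGK than in WTK (log2 fold change -1.60, SE 0.10, edgeR adjusted p = 1.22e-07). It was 1.61-fold higher in LepK than in IgGK (log2 0.68, SE 0.10, edgeR adjusted p = 0.000825) and stayed below WTK (log2 -0.92, SE 0.10, edgeR adjusted p = 2.93e-05). Without IgGK replicate 2 and LepK replicate 2 these 3 values were -1.48, 0.63 and -0.86, and the calls stood (edgeR adjusted p = 4.23e-08, 0.00062 and 9.57e-06). The call of LepK against IgGK was lost in a fit of all 15 libraries together (edgeR adjusted p = 0.0726).

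Pck1, which makes phosphoenolpyruvate from oxaloacetate, measured 3240.4, 3548 and 3329.9 normalized CPM in WTK, 2039, 1989.6 and 1707 in IgGK, and 2388, 2482 and 2615 in LepK. The 3 groups did not overlap and stood in the same order as for Fbp1, with narrower gaps. Pck1 fell in IgGK against WTK by 0.82 on the log2 scale (SE 0.08, edgeR adjusted p = 3.31e-06). Scaled by library size alone the value was -0.38 and the call was lost, as it was in the fit of all 15 libraries (edgeR adjusted p = 0.126). LepK exceeded IgGK by 0.38 on that scale (95% interval 0.21 to 0.56, edgeR adjusted p = 0.00588), past the p threshold and under the fold threshold. In LepK against WTK it was -0.43 (SE 0.08, edgeR adjusted p = 0.00115), also under the fold threshold. Without IgGK replicate 2 and LepK replicate 2 these 3 values were -0.84, 0.42 and -0.42, on the same side of the thresholds.

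Slc2a2, the transporter that carries glucose out of proximal tubule cells, fell with the gluconeogenic enzymes. It measured 225, 271 and 229 normalized CPM in WTK, 98.8, 72.4 and 92.8 in IgGK and 119, 95.4 and 100.5 in LepK. The LepK libraries overlapped IgGK and lay well under WTK. The log2 fold change was -1.46 (SE 0.12, edgeR adjusted p = 8.62e-07) in IgGK against WTK and -1.20 (SE 0.12, edgeR adjusted p = 1.83e-05) in LepK against WTK. Between LepK and IgGK it was 0.26 with a 95% interval of -0.01 to 0.52 (edgeR adjusted p = 0.161). Without IgGK replicate 2 and LepK replicate 2 these values were -1.33, -1.12 and 0.20, and the calls stood.

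Slc2a1, the transporter of basal glucose uptake in most cells, passed no call in the kidney. Its 9 kidney libraries lay between 41.6 and 57.4 normalized CPM, with IgGK lowest at 41.6, 43.0 and 43.9. The log2 fold change was -0.17 (SE 0.08, edgeR adjusted p = 0.0812) in IgGK against WTK and turned to 0.27 with library-size scaling. Between LepK and IgGK it was 0.28 (SE 0.08, edgeR adjusted p = 0.0225), under the fold threshold. With Slc2a2 falling, the TPM ratio of Slc2a1 to Slc2a2 was 0.275 to 0.359 in WTK, 0.692 to 0.976 in IgGK and 0.681 to 0.987 in LepK.

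The hexokinases, which trap glucose as glucose-6-phosphate, differed from each other. Hk2, the inducible form abundant in muscle and in activated or growing cells, measured 3.45, 1.34 and 3.50 normalized CPM in WTK, 14.3, 18.4 and 18.0 in IgGK and 13.6, 8.18 and 9.41 in LepK. The IgGK libraries all exceeded the LepK libraries, and the gap between IgGK replicate 1 and LepK replicate 1 was small. Hk2 was 6.11-fold higher in IgGK than in WTK (log2 2.61, SE 0.30, edgeR adjusted p = 9.42e-06) and 3.76-fold higher in LepK than in WTK (log2 1.91, SE 0.30, edgeR adjusted p = 0.000322). LepK stood at -0.70 relative to IgGK on the log2 scale (95% interval -1.28 to -0.12, edgeR adjusted p = 0.0839), which missed the threshold. DESeq2 called it lower (adjusted p = 0.0347), as did edgeR without LepK replicate 1 (-0.94, adjusted p = 0.0449) and edgeR with library-size scaling (-0.89, adjusted p = 0.0255). Without IgGK replicate 2 and LepK replicate 2 the edgeR value was -0.48 (adjusted p = 0.342).

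Hk1, the housekeeping form, was near level between WTK (117, 111 and 115 normalized CPM) and IgGK (115, 114 and 114). The log2 difference was 0.00, with a 95% interval of -0.13 to 0.12 (edgeR adjusted p = 0.97), and it was 0.44 with library-size scaling. LepK libraries stood higher, at 144, 138 and 133, with no overlap. Their log2 difference from IgGK was 0.28 (SE 0.06, edgeR adjusted p = 0.00599), under the fold threshold. LepK against WTK gave 0.27 (edgeR adjusted p = 0.00285), also under it, and 0.53, which was called, with library-size scaling.

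Pfkp, the platelet-type phosphofructokinase that commits fructose-6-phosphate to glycolysis, measured 42.3, 49.9 and 45.9 normalized CPM in WTK, 100.6, 108 and 97.8 in IgGK and 66.9, 85.4 and 79.7 in LepK. The groups did not overlap, and LepK lay between the others. Pfkp was 2.22-fold higher in IgGK than in WTK (log2 1.15, SE 0.09, edgeR adjusted p = 7.07e-07) and 1.68-fold higher in LepK than in WTK (log2 0.75, SE 0.09, edgeR adjusted p = 7.52e-05). The log2 value of LepK relative to IgGK was -0.40 (95% interval -0.60 to -0.20, edgeR adjusted p = 0.00912), under the fold threshold, and with library-size scaling it was -0.58 and called.

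Pkm, which makes pyruvate and ATP in most tissues outside liver, measured 254, 245 and 258 normalized CPM in WTK, 324, 381 and 318 in IgGK and 324, 357 and 324 in LepK. Both folic acid groups lay above WTK and overlapped each other. The log2 fold change was 0.43 (SE 0.08, edgeR adjusted p = 0.000491) in IgGK against WTK and 0.41 (SE 0.08, edgeR adjusted p = 0.00151) in LepK against WTK, both under the fold threshold, and both were called with library-size scaling (0.88 and 0.67). LepK minus IgGK was -0.03 on the log2 scale (95% interval -0.20 to 0.15).

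Ldha, the lactate dehydrogenase subunit of muscle and other glycolytic tissue, went down and not up with Hk2 and Pfkp. It measured 776, 792 and 781 normalized CPM in WTK, 532, 485 and 519 in IgGK and 688, 565 and 593 in LepK, with no overlap between groups. Ldha fell in IgGK against WTK by 0.61 on the log2 scale (SE 0.08, edgeR adjusted p = 3.02e-05). Scaled by library size alone the value was -0.17 and the call was lost. LepK against IgGK gave 0.26 (SE 0.08, edgeR adjusted p = 0.0333) and LepK against WTK -0.35 (SE 0.08, edgeR adjusted p = 0.00402), both under the fold threshold.

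**Figure D2:**
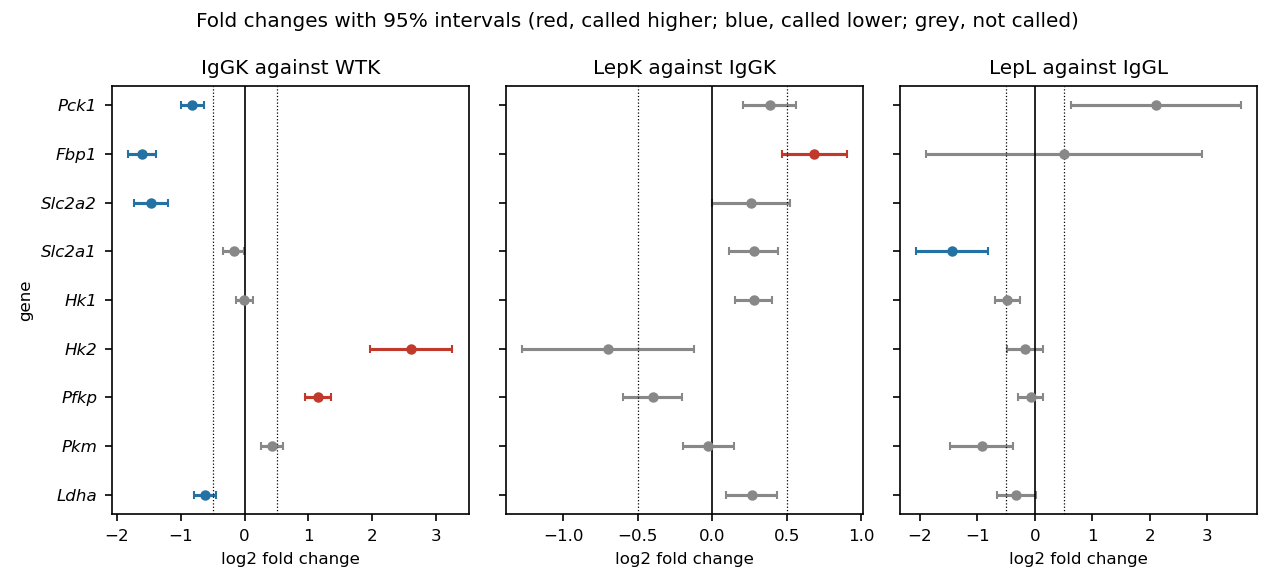
Log2 fold changes of the members (horizontal axes) with 95% intervals in 3 comparisons; red marks genes called higher, blue genes called lower and grey genes not called, and dotted lines mark 0.5 and -0.5. Slc2a2 was below the count filter in lung and has no point there; in LepK against IgGK Fbp1 alone is coloured, and in LepL against IgGL Slc2a1 alone.

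Marker genes of kidney cells differed between the same groups. The summed level of 12 proximal tubule markers was 30790 to 33011 normalized CPM in WTK, 7588 to 10786 in IgGK and 14434 to 19474 in LepK. All 12 were called lower in IgGK against WTK and 9 were called higher in LepK against IgGK. The 12 macrophage markers summed to 210.0 to 239.8 in WTK, 1896 to 2409 in IgGK and 673 to 1010 in LepK, and all 12 were called higher in IgGK. The 8 fibroblast markers summed to 185 to 246, 1418 to 1609.6 and 509 to 841 in the same order. The 8 injured tubule markers summed to 72.3 to 78.2, 789 to 878 and 373 to 523, with 8 called higher in IgGK against WTK and 7 lower in LepK against IgGK, and the 5 neutrophil markers to 2.80 to 3.66, 21.4 to 30.2 and 9.42 to 11.2. Markers of the loop, distal tubule and collecting duct summed to 4362 to 4387 in WTK, 2987 to 3515 in IgGK and 4351 to 4778 in LepK, and 7 of 9 were called higher in LepK against IgGK. The 5 erythroid markers, at 130.3 to 132 in WTK, 77.1 to 161 in IgGK and 215 to 373 in LepK, were all called higher in LepK against IgGK. Adipocyte markers also differed, at 22.7 to 71.2 in WTK, 143 to 237 in IgGK and 46.4 to 114 in LepK. In bulk tissue, fewer cells of a type and less RNA per cell cannot be told apart. The part of these cell types in the members' values was not tested.

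Genes whose log2 CPM ran most like a member's over the 9 kidney libraries were named by the highest Pearson r among 15603 genes with a symbol and a mean of at least 1 CPM. The libraries share 3 groups, so such r values mostly follow the group means and are a description. Fbp1 ran closest to Nsdhl, an enzyme of cholesterol synthesis (r = 0.998). Pck1 ran closest to Glud1, the glutamate dehydrogenase (r = 0.988), and to Pebp1 (r = 0.988). Slc2a2 ran closest to Enpp5 (r = 0.998) and Kidins220 (r = 0.997). Slc2a1 ran closest to Klhdc4 (r = 0.958) and Ppp1r1a (r = 0.953), and Hk1 to Slc12a1, the sodium-potassium-chloride cotransporter of the thick ascending limb (r = 0.958), and to Gltp (r = 0.946). Hk2 ran closest to Adgrf1 (r = 0.993) and Cox8b (r = 0.984), Pfkp to the annexin Anxa5 and the myeloid receptor Pirb (r = 0.998 for both), Pkm to Trim26 (r = 0.983) and Tincr (r = 0.981), and Ldha to Mpc1-ps, a processed pseudogene of a mitochondrial pyruvate carrier subunit (r = 0.998), and to Sucla2, a subunit of succinyl-CoA ligase (r = 0.997).

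Isozymes were compared as TPM ratios within a library, which do not depend on the scaling between libraries. With 3 libraries against 3 the smallest two-sided exact permutation p is 0.1, so no ratio could reach 0.05, and over the 36 tests of ratios the smallest Benjamini-Hochberg value was 0.116. The ratio of Hk2 to Hk1 was 0.0172 to 0.0434 in WTK, 0.178 to 0.231 in IgGK and 0.0849 to 0.135 in LepK, so that each group kept to its own range. Hk2 made up 3.06% of hexokinase TPM in WTK, 14.6% in IgGK and 8.86% in LepK, while Hk1 made up 89.7%, 69.0% and 82.9%. Hk3, a hexokinase of myeloid cells, took 2.97%, 12.9% and 5.11%.

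The ratio of Pfkp to Pfkm, the muscle-type phosphofructokinase, was 0.160 to 0.190 in WTK, 0.528 to 0.601 in IgGK and 0.301 to 0.403 in LepK. Pfkp supplied 9.87%, 23.5% and 16.3% of phosphofructokinase TPM in these groups. Pkm supplied 84.3%, 82.1% and 85.3% of pyruvate kinase TPM, the rest being Pklr, the liver and red cell gene. Ldha supplied 19.7%, 17.3% and 18.4% of the A and B lactate dehydrogenases, so Ldhb, the heart-type subunit, predominated in all kidneys. The ratio of Fbp1 to Pfkp, which sets the enzyme that removes the phosphate against one that adds it, was 232 to 258 in WTK, 28.5 to 40.4 in IgGK and 63.8 to 93.2 in LepK.

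**Figure D3:**
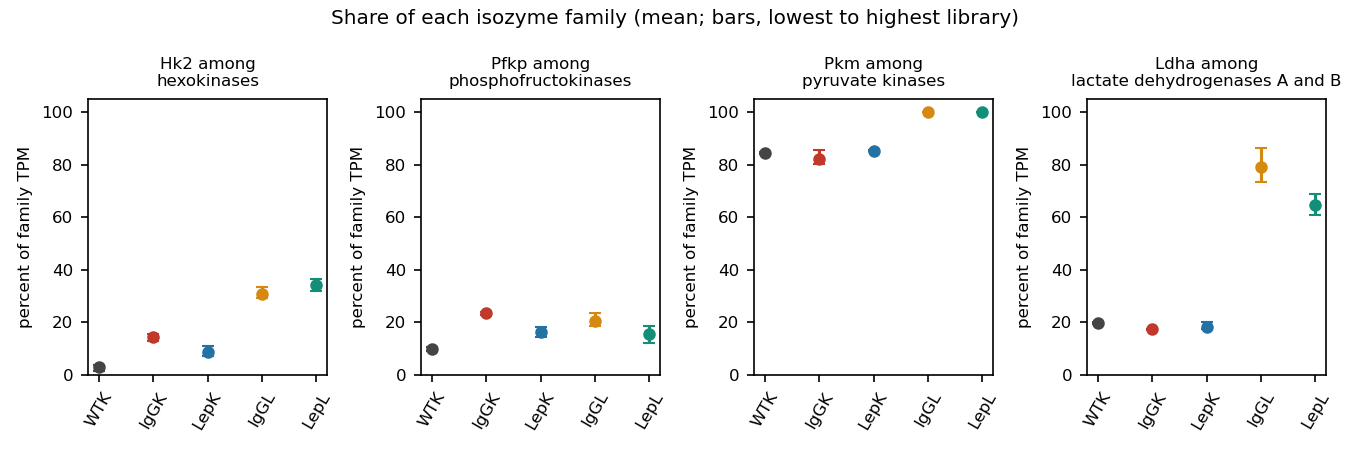
Percent of its isozyme family's TPM (vertical axes) that Hk2, Pfkp, Pkm and Ldha supplied in the 5 groups; points are means of 3 libraries and bars run from the lowest to the highest library. Hk2 and Pfkp were at 14.6% and 23.5% in IgGK against 3.06% and 9.87% in WTK, and Ldha was under 21% in every kidney library and over 60% in every lung library.

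Of the 62 other genes of the pathways, 60 passed the filter in kidney. In IgGK against WTK, 13 were called higher and 24 lower, beside 21.7% and 15.6% of all genes, and the median was -0.41 on the log2 scale. With LepAb, in LepK against IgGK, 10 were called higher and 3 lower (median 0.24), beside 4.38% and 5.99% of all genes, and in LepK against WTK, 9 and 14 (median -0.15), beside 15.2% and 7.3%. With library-size scaling the 24 called lower became 12 and the 10 called higher became 5. Which genes kept their call was not followed singly, so the calls of single pathway genes given below hold for TMM scaling.

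Of the 6 other gluconeogenesis genes, 3 were called lower and 2 higher in IgGK against WTK, and of the 10 other transporters 4 and 3. Of all genes 15.6% were called lower and 21.7% higher. Slc5a2 measured 373, 349.9 and 326 normalized CPM in WTK, 49.5, 51.3 and 54.3 in IgGK and 130.2, 92.2 and 93.0 in LepK, with no overlap. Its log2 fold change was -2.76 in IgGK (SE 0.12, edgeR adjusted p = 1.5e-08) and 1.02 between LepK and IgGK (SE 0.12, edgeR adjusted p = 0.000244). G6pc, the glucose-6-phosphatase that completes gluconeogenesis, averaged 588 in WTK, 158 in IgGK and 353 in LepK, and its log2 fold changes were -1.90 (edgeR adjusted p = 6.16e-08) and 1.16 (edgeR adjusted p = 7.16e-05). The values in this paragraph include the libraries rich in hepatocyte markers. Slc37a4, which carries glucose-6-phosphate into the endoplasmic reticulum, changed by -1.46 and 0.70, and Slc2a5, the fructose transporter, by -1.49 and 0.81, all called. Pcx, the pyruvate carboxylase, fell by 1.60 on the log2 scale in IgGK and stood at 0.45 in LepK against IgGK (edgeR adjusted p = 0.00284), under the fold threshold. Slc2a12, a further glucose transporter, fell by 1.84 (10.3 to 2.88 normalized CPM) and Ldhd, the D-lactate dehydrogenase, by 1.65 (2113 to 675). Pck2, the mitochondrial counterpart of Pck1, went the other way and rose by 0.75 on the log2 scale in IgGK (edgeR adjusted p = 4.56e-06), so that the ratio of Pck1 to Pck2 was 280.1 to 316 in WTK and 92.0 to 113 in IgGK. Fbp2, the muscle form of the bisphosphatase, rose by 0.57 from a mean of 7.88 normalized CPM.

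Of the 13 enzymes of the reversible steps shared by both directions, 5 were called lower and 1 higher in IgGK against WTK. The shares of all genes were 15.6% and 21.7%. Among those called, Pgam2 fell by 0.91, Pgk1 by 0.89, Tpi1 by 0.86 and Pgam1 by 0.71 on the log2 scale, and Eno2, the neuronal-type enolase, rose by 2.25 from 2.91 to 13.8 normalized CPM. With LepAb, Pgam2 rose by 0.81 on the log2 scale, and Eno2 fell by 0.72. Gapdh was also called higher (log2 0.85), with overlapping groups. It has many near-identical copies in the genome and averaged 19.6 and 35.2 normalized CPM, which is low for this gene, so its value is uncertain.

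Among the 13 pathway genes called higher after folic acid were Hk3, which rose by 2.51 (1.64 to 9.27 normalized CPM), Slc16a3, the lactate exporter MCT4, which rose by 2.39 (1.25 to 6.54), and the transporters Slc2a6 (2.86), Slc2a10 (1.24) and Slc2a3 (1.19) on the log2 scale. With LepAb, Hk3 fell by 1.34 (SE 0.19, edgeR adjusted p = 0.000755) and Slc16a3 by 0.85 (SE 0.23, edgeR adjusted p = 0.0223). LepK stayed above WTK for Slc2a6 (log2 2.08), Slc16a3 (1.55), Eno2 (1.53), Pdk4 (1.37), Hk3 (1.16) and Slc2a3 (1.01), and below WTK for Slc5a2 (-1.73), Slc2a12 (-1.15), Pcx (-1.15), Ldhd (-1.11) and Pdp2 (-0.85), all called. Of the 13 genes of pyruvate entry into mitochondria, 9 were called lower in IgGK against WTK, beside 15.6% of all genes. Among them were the pyruvate carriers Mpc1 (-0.96) and Mpc2 (-0.65) and the dehydrogenase subunits Pdha1 (-0.91), Dlat (-0.83) and Dld (-0.90). Pdk4, a kinase that switches the dehydrogenase off, rose by 1.71 (17.5 to 57.2 normalized CPM) and the phosphatase Pdp1 by 0.79.

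**Figure D4:**
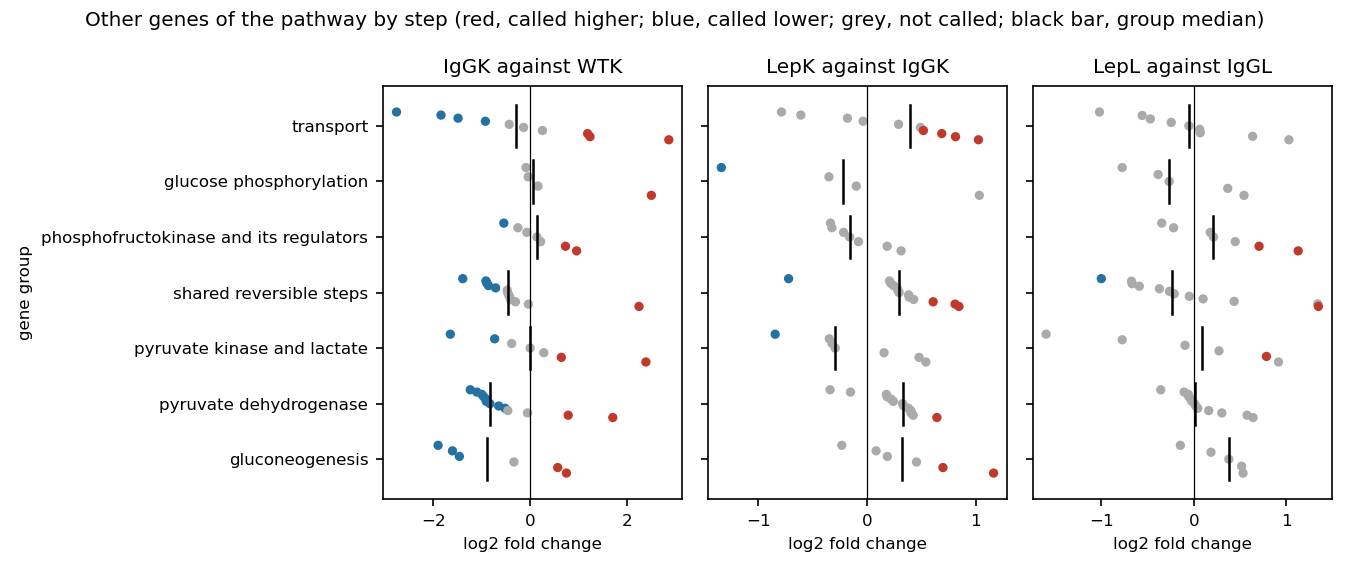
Log2 fold changes (horizontal axes) of the other genes of the pathways, grouped by step, in 3 comparisons; each point is 1 gene, red called higher, blue called lower, grey not called, and black bars are group medians. In IgGK against WTK the gluconeogenesis and pyruvate dehydrogenase groups have medians of -0.90 and -0.83, and in LepK against IgGK 0.32 and 0.33.

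Regulators of these genes were listed as well. Of 19 tested in kidney, 3 were called higher and 7 lower in IgGK against WTK, beside 21.7% and 15.6% of all genes. Among those called, Hnf4a, a transcription factor of the proximal tubule and liver, fell by 1.34 on the log2 scale, Mlxipl, the glucose-sensing factor ChREBP, by 1.04, and Ppargc1a, a coactivator of gluconeogenic and mitochondrial genes, by 0.77. Myc rose by 0.90, Cebpb by 0.94 and Txnip by 0.60. With LepAb in the kidney Mlxipl rose by 0.57 (SE 0.11, edgeR adjusted p = 0.00394) and was the regulator called. Of 12 genes that respond to hypoxia outside glycolysis, 7 were called lower in IgGK against WTK, among them Vegfa (-1.03) and Car9 (-1.78), and 1 higher, Stc2 (2.92). Car9 rose in LepK against IgGK by 1.05.

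In the lung the members stood in another order. Per length, the highest members in IgGL were Pkm (mean 618 TPM) and Ldha (539 TPM), whose ranges overlapped, followed by Slc2a1 (63.6) and Hk1 (39.8). Pck1 averaged 5.61 TPM and Fbp1 0.490. In WTK the order was Pck1 (2104), Fbp1 (1778), Ldha (506), Pkm (108), Slc2a2 (89.8), Slc2a1 (29.4), Hk1 (28.8), Pfkp (7.35) and Hk2 (0.994), and among these neighbours only Slc2a1 and Hk1 overlapped. The same 9 places held in IgGK and LepK except that Hk1 and Slc2a1 changed places. Slc2a2 and Hk1 overlapped in IgGK, and Hk1 and Slc2a1 overlapped in LepK. In LepL Ldha (410.1) stood above Pkm (311), and Hk1 (27.0), Pck1 (22.9), Hk2 (22.5) and Slc2a1 (22.4) overlapped from each to the next. Deposited FPKM in place of TPM gave the same 45 ranks. They rest on the same counts and gene lengths, so the order within a library could not differ and this is no separate check.

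IgGK was set against IgGL in a fit of the 12 injured libraries, where 26.3% of 21488 genes were called higher and 24.2% lower. In this comparison 3 members were called higher in kidney, Fbp1 (525 against 0.263 normalized CPM), Slc2a2 (99.2 against 0.123) and Pck1 (2154 against 5.91), and 2 lower on the log2 scale, Hk2 (-1.38, edgeR adjusted p = 1.86e-05) and Pkm (-1.33, edgeR adjusted p = 5.88e-05). Slc2a2 did not pass the filter in lung alone and entered this fit through the kidney libraries, so its call followed from the filter. Pfkp missed the fold threshold (0.49), Slc2a1 missed the p threshold (-0.53, edgeR adjusted p = 0.0552), and Ldha differed by 0.05 (95% interval -0.23 to 0.33). The 6 skeletal muscle markers were all called lower in kidney. Scaled within each organ, they summed to 0.79 to 1.86 normalized CPM in IgGK and 267 to 916 in IgGL. Their part in the value of Hk2 was not tested. Ldhb made up 82.7% of A and B lactate dehydrogenase TPM in IgGK and 20.7% in IgGL.

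**Figure D5:**
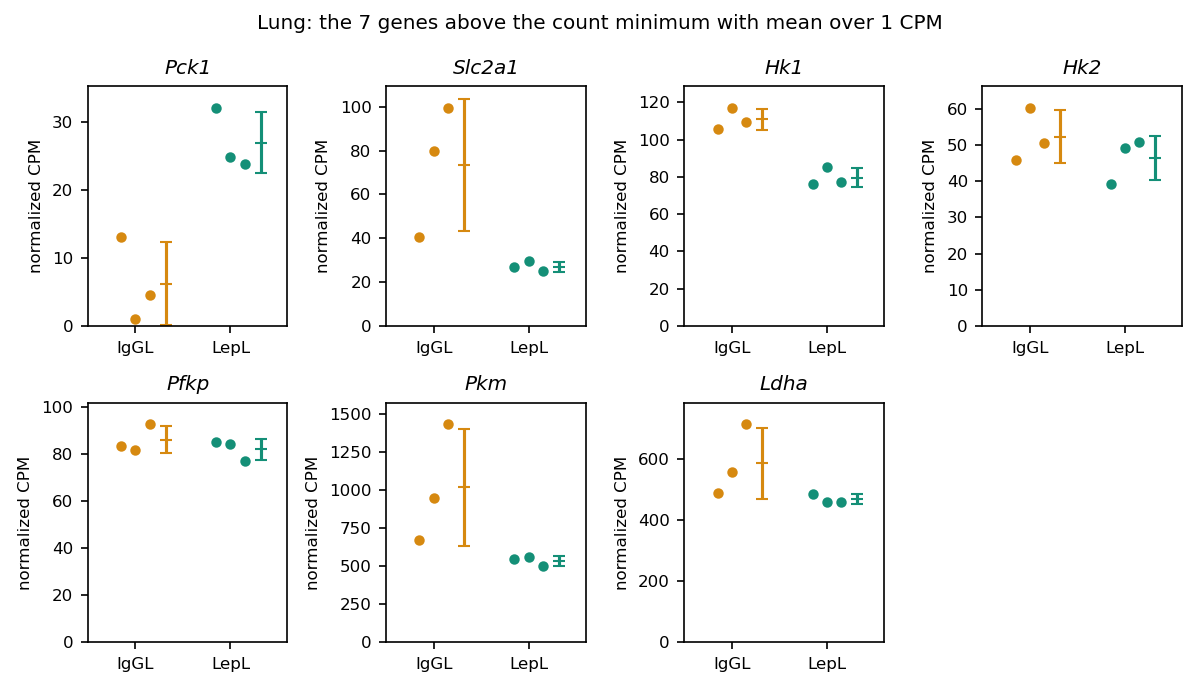
Normalized CPM (vertical axes, from 0) in IgGL and LepL for 7 members; points are libraries and bars give the mean and SD of 3. Slc2a1, Hk1, Pkm and Ldha were lower in every LepL library than in any IgGL library, Pck1 was higher, and Hk2 and Pfkp overlapped. Of these genes only Slc2a1 was called. Ldha was separated narrowly, at 487 in the lowest IgGL library and 486 in the highest LepL library. The share of all genes that separate in this way was not counted.

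With LepAb in the lung, Slc2a1 fell. It measured 40.7, 80.0 and 99.6 normalized CPM in IgGL and 27.1, 29.4 and 24.9 in LepL. IgGL replicate 1 lay nearer to LepL than the other IgGL libraries. Slc2a1 was 2.71-fold lower in LepL (log2 -1.44, SE 0.27, edgeR adjusted p = 0.036). Without IgGL replicate 1 the value was -1.73 (edgeR adjusted p = 0.000256), and leaving out any 1 of the other 5 libraries, IgGL replicates 2 and 3 or LepL replicates 1, 2 and 3, ended the call (-1.16 to -1.497, edgeR adjusted p = 0.0606 to 0.193).

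Marker genes of other cells differed between the same lungs. The 8 fibroblast markers summed to 7450 to 8570.4 normalized CPM in IgGL and 3349 to 4610.3 in LepL, with 5 called lower, and the neutrophil markers to 164 to 396 and 64.3 to 96.4. The 12 macrophage markers summed to 4323 to 7029 in IgGL and 8268 to 8555 in LepL. Singly, 11 of them had a negative log2 fold change, and 4 were called lower and 0 higher. Alveolar type 2 markers summed to 6894 to 12923 in IgGL and 18569 to 25249 in LepL. Their part in the values of Slc2a1, Hk1 and Pkm was not tested.

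Hk1 measured 106, 117 and 109.7 normalized CPM in IgGL and 76.2, 85.5 and 77.1 in LepL, without overlap (log2 -0.48, SE 0.10, edgeR adjusted p = 0.0386, under the fold threshold). Pkm measured 674, 949 and 1435 in IgGL and 547, 562 and 501 in LepL (log2 -0.93, SE 0.24, edgeR adjusted p = 0.0604). DESeq2 called Pkm lower (adjusted p = 0.00189), and so did edgeR without IgGL replicate 1 (-1.15, adjusted p = 0.00321). Pkm was called in 4 of 14 alternatives, and leaving out any 1 of the other 5 libraries gave -0.60 to -0.98 with an adjusted p of up to 0.234. Ldha measured 487, 556 and 713 in IgGL and 486, 459.8 and 458 in LepL (log2 -0.32, 95% interval -0.66 to 0.02). Hk2 (46.0, 60.3 and 50.6 against 39.3, 49.0 and 50.8) and Pfkp (83.5, 81.8 and 92.5 against 84.8, 84.0 and 76.8) overlapped between the groups.

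Pck1 was higher with LepAb in every lung library. It measured 13.0, 1.06 and 4.59 normalized CPM in IgGL and 32.1, 24.8 and 23.9 in LepL. The IgGL libraries spread by over 10-fold, from 38 to 470 counts. The log2 fold change was 2.11 (SE 0.65, edgeR adjusted p = 0.0842), which missed the threshold, and without IgGL replicate 1 it was 3.28 and called (edgeR adjusted p = 0.00285). The 5 adipocyte markers, genes of fat cells, in which Pck1 serves glycerol synthesis, summed to 12.2 to 22.0 in IgGL and 36.8 to 50.8 in LepL, and Adipoq and Cidec were called higher among the 4 that passed the filter. Their part in the value of Pck1 was not tested. Fbp1 and Slc2a2 had 0 to 20 counts in each lung library, and Slc2a2 did not pass the filter.

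Of the 57 other pathway genes tested in lung, 4 were called higher and 1 lower, beside 1.78% and 2.36% of all genes. Leaving out IgGL replicate 2 or 3 or LepL replicate 1, 2 or 3 left 0 of these calls, and without IgGL replicate 1 there were 10 higher and 5 lower. Pgam2, the muscle phosphoglycerate mutase, rose by 1.35 on the log2 scale, Pfkm by 1.13, Ldhb by 0.78 and Pfkfb2, which makes the activator of phosphofructokinase, by 0.71, while Eno1, the common enolase, fell by 0.997 (edgeR adjusted p = 0.0464). Ldha made up 79.3% of A and B lactate dehydrogenase in IgGL and 64.7% in LepL, with ranges of 73.4% to 86.2% and 60.8% to 68.9%. The 6 skeletal muscle markers summed to 267 to 916 normalized CPM in IgGL and 892 to 2157 in LepL, and 1 of them, Myl1, was called higher. Their part in the values of Pgam2 and Pfkm was not tested. Among regulators, Myc fell by 1.12 (edgeR adjusted p = 0.0337), and Mlxipl and Ppargc1a rose by 1.48 and 1.04.

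The antibody effect was compared between organs by the interaction term of the fit of 12 libraries, in which the call needs an adjusted p under 0.05 only, and 3.51% of genes were called higher in kidney and 3.62% lower. Called were 2 members, Slc2a1 and Hk1, both with a more positive effect in kidney. For Slc2a1 the difference was 1.74 on the log2 scale (SE 0.32, edgeR adjusted p = 0.0138) and for Hk1 it was 0.79 (SE 0.11, edgeR adjusted p = 0.00588). Both kept their call in all 20 alternatives run, with values of 1.43 to 2.03 for Slc2a1 and of 0.53 to 0.84 for Hk1. Pkm (0.93, edgeR adjusted p = 0.0607), Ldha (0.62, edgeR adjusted p = 0.0602) and Pck1 (-1.69, edgeR adjusted p = 0.136) did not pass. Pfkp did not pass either (-0.30, edgeR adjusted p = 0.179), and with library-size scaling it was -0.55 and called (edgeR adjusted p = 0.0415). Among the other pathway genes 9 were called higher and 2 lower, of which 6 higher were shared reversible steps, led by Eno1 (1.27) and Pgk1 (1.01) after Gapdh.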

How the data were processed

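RNA was enriched for poly(A) and libraries were non-directional per the labels. The deposited table holds whole-number read counts per gene and FPKM, which the authors obtained from a sequencing provider. Build GRCm39 and DESeq2 stand in the submitters' processing notes. The aligner and counter are not given in the sources used here. Group means, fold changes and p-values of the authors' own comparisons were not used. Libraries were grouped by title, tissue and treatment labels. A further label line that names a column disagrees with these and was not used.

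Counts were tested with edgeR 4.0.16 in R 4.3.3 (quasi-likelihood test, TMM scaling, filterByExpr with a minimum count of 10) in 1 fit of 9 kidney libraries, 1 of 6 lung libraries and 1 of the 12 injured libraries, with 6, 4 and 8 residual degrees of freedom. The SE is the absolute log2 fold change over the square root of F, and intervals cover 95%. DESeq2 1.42.0 was an alternative. TPM was computed from the counts and the table's gene lengths. Isozyme ratios were compared by two-sided exact permutation tests. Fits were tested on simulated counts. Promoter windows came from RefSeq on GRCm38.p6, a build other than that of the table, and no coordinate was converted.

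The members, pathway lists, marker lists and tests were chosen with earlier results of these data known. Named were the members, in each comparison up to 6 called pathway genes per direction with the largest fold change and a mean of at least 1 CPM, paralogs of the members, called or defining genes of the other lists, and the 2 genes nearest in pattern. Pgam1, Dlat, Dld, Mpc1, Mpc2, Pdha1, Pdp1 and others beyond 6 were chosen after their values were seen. G6pc is listed under its older symbol, and for Aldoa, on 2 rows, the row with more counts was used. Some genes that these rules would name are not reported here.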

Additional observations from a re-analysis of the deposited data

Results flagged for a closer look

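The effect of LepAb differed between kidney and lung for Slc2a1 and for Hk1 by the interaction term across the 12 injured libraries. For Slc2a1 the kidney effect exceeded the lung effect by 1.74 on the log2 scale (edgeR adjusted p = 0.0138), from 0.28 in kidney and -1.44 in lung in the separate fits. For Hk1 it was 0.79 (edgeR adjusted p = 0.00588), from 0.28 and -0.48. Organ, injuring agent, age, course of antibody and day of tissue collection cannot be told apart in this difference.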

How the results depend on the processing

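Of the members' log2 fold changes under the alternatives, 792 kept direction and side of the threshold, 39 gained a call, 10 lost one and 17 turned sign. No cause was tested for the shifts below. With the fold threshold at 1, members called lower were 2 in IgGK against WTK, members called higher 0 in LepK against IgGK, and 1 higher and 1 lower in LepK against WTK. Pathway genes were then 7 higher and 10 lower for IgGK against WTK, 2 and 1 for LepK against IgGK, 4 lower in LepK against WTK, 2 and 0 in LepL against IgGL, and 7 lower in IgGK against IgGL. Of all 19593 genes tested in kidney, 3061 were then called higher and 1236 lower in IgGK against WTK. In LepK against IgGK they were 175 and 428, and in LepK against WTK 1839 and 302. LepL against IgGL had 192 and 229 of 19617 genes, and IgGK against IgGL 4102 and 3578 of 21488. With no fold threshold, 5 members were called higher and 1 lower in LepK against IgGK, 4 and 4 in LepK against WTK, 2 lower in LepL against IgGL and 5 higher in IgGK against IgGL, and pathway genes were 28 and 6 in LepK against IgGK and 26 lower in LepK against WTK. Of all 19593 genes tested in kidney, 2150 were then called higher and 1875 lower in LepK against IgGK, and 3919 and 3650 in LepK against WTK. LepL against IgGL had 368 and 499 of 19617 genes, and IgGK against IgGL 6502 and 6264 of 21488. With library-size scaling, members called lower were 2 for IgGK against WTK and 2 for LepK against IgGK. Members called higher were 4 in LepK against WTK, and in the organ difference 1 member, Pfkp, was called lower. Pathway genes were then 12 lower for IgGK against WTK, 5 and 6 for LepK against IgGK, 7 lower in LepK against WTK, and 3 and 5 in the organ difference. All genes called were then 408 higher and 2185 lower in LepK against IgGK (858 and 1174 with TMM), 4782 and 512 in LepK against WTK (2984 and 1431) and 249 and 1968 in the organ difference (754 and 777). With upper quartile scaling 0 pathway genes were called lower in LepL against IgGL. Members called lower in LepK against IgGK were 1 with no filter on low counts, with DESeq2 and with a fit of the 2 groups alone, in each case Hk2, and members called higher were 0 in the fit of all 15 libraries. In LepL against IgGL, no filter gave 1 member higher and 2 lower and 9 and 5 pathway genes, the fit of 15 libraries 1 and 2 members and 11 and 3 pathway genes, and DESeq2 2 members and 4 pathway genes lower. In the organ difference 4 members were called higher with no filter, with the fit of 15 libraries and with DESeq2, and with no filter 1 member and 6 pathway genes were called lower. All genes called in LepL against IgGL were 349 higher and 463 lower, against 1515 and 1173 with no filter, 1236 and 1102 with DESeq2 and 1247 and 1046 with 15 libraries.

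Correlations of the deviations of same-numbered replicates ran from -0.055 to 0.18. They were 0.18 and 0.17 for replicates 1 and 2 of IgGK and LepK and -0.035 for replicate 3. In no comparison were all 3 over 0.1, so the numbers were not taken as pairs. A replicate block left 0 members and 0 pathway genes called in LepL against IgGL, where Slc2a1 was -1.35 (edgeR adjusted p = 0.0794), and 1 gene higher and 3 lower of all genes.

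Leaving out 1 library at a time, members called lower in LepK against IgGK were 0 to 1 and pathway genes 9 to 12 higher and 1 to 4 lower. In LepL against IgGL members were 0 to 1 higher and 0 to 3 lower and pathway genes 0 to 10 and 0 to 5. In the organ difference members were 2 to 4 higher and 0 to 1 lower and pathway genes 3 to 11 and 0 to 6.

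Signs turned for the following values. In IgGK against WTK Slc2a1 became 0.27 with library-size scaling. Hk1 became 0.44 with library-size and 0.035 with upper quartile scaling, 0.0045 with no filter, 0.014 with a mean of at least 1 CPM, 0.011 in the fit of 2 groups, 0.015 and 0.00086 without WTK replicates 1 and 3, 0.0078 without IgGK replicate 2 (lowest -0.024, without WTK replicate 2), and 0.0081 without both libraries rich in hepatocyte markers, an alternative chosen after seeing the data. In LepK against IgGK Pkm became 0.064 without IgGK replicate 2 and 0.017 without both libraries, and was lowest, -0.073, without LepK replicate 2. The log2 ratio of Slc2a1 to Slc2a2 became -0.13, -0.10 and -0.017 without LepK replicate 2, IgGK replicate 1 and IgGK replicate 3, and was highest, 0.15, without IgGK replicate 2. Fbp1 in lung, 0.51 with all libraries, became -0.088 without IgGL replicate 2 and 1.21 without IgGL replicate 3, and its organ difference -0.029 with library-size scaling, -0.47 without IgGL replicate 3, -0.33 without LepL replicate 3 and 0.83 without IgGL replicate 2. Ldha in IgGK against IgGL became -0.064 without IgGL replicate 1 and 0.19 without IgGL replicate 3. Fbp1 and Slc2a2 had at most 20 counts per lung library, so their lung differences were not detectable at this depth.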
